A study of Gallus gallus with 6 samples.

Results

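J-domain cochaperones are the partners that recruit and switch on HSP70 chaperones. Each carries a J domain, whose histidine-proline-aspartate motif makes HSP70 hydrolyse ATP and close on its client protein, and nucleotide exchange factors then reset the cycle. Family members differ in where they work. Most class A and many class B proteins bind unfolded chains in the cytosol. Class C proteins mostly carry HSP70 to a fixed place such as a ribosome, an import channel or a clathrin coat. Several cytosolic members are known in other vertebrates as targets of the heat shock response, and several members of the endoplasmic reticulum as targets of the unfolded protein response.

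The genes described here are all those in the deposited all-gene table with a symbol of the form DNAJA, DNAJB or DNAJC followed by a number. The rule used names only, and it found 38 of 15491 listed genes: 4 of class A, 9 of class B and 25 of class C, all annotated as protein coding. Each listed gene has at least 1 count in every library. No listed gene carries the symbols DNAJB1, DNAJB8, DNAJC14 or DNAJC5B, which the reference gene table names, so these were not analysed here.

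RNA was sequenced from abdominal fat of male broilers of the Ross line, chickens bred for meat, with 3 libraries per group. All birds were moved to individual cages at 22 °C on day 14 and lived under light for 24 h a day at 50% humidity. Between days 21 and 35, thermoneutral birds remained at 22 °C while heat stress birds were held at 32 °C, each within 0.5 °C. The labels assign 12 chickens to each treatment and do not say that each library is 1 bird, so every p-value reflects variation among libraries, which may be technical.

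Depth did not overlap between the groups: total counts ran from 30673333 to 35836632 in thermoneutral libraries and from 38336086 to 45163458 in heat stress libraries. The fat markers fixed for the tissue check were abundant, with 7 of 7 measured and PLIN1, a lipid droplet coat protein, at a mean of 2206 FPKM. Summed over those 7 markers, the level was 13220 to 18654 CPM in thermoneutral and 19195 to 21688 CPM in heat-stressed fat. Of the 7 fat markers, 6 had a higher and 1 a lower level in heat-stressed fat. T cell markers (6 of 6 measured) summed to 145 to 156 and 89.4 to 102.5 CPM, and fibroblast markers (6 of 6 measured) to 16032 to 20336 and 11035 to 13656 CPM. Erythrocyte markers (3 of 4 measured) summed to 365 to 829 and 197 to 345 CPM, skeletal muscle markers (2 of 5 measured) to 33.7 to 60.3 and 12.9 to 24.8 CPM, and cell cycle markers (4 of 4 measured) to 53.2 to 106 and 30.7 to 46.0 CPM. The groups did not overlap in these 6 sums, while those of B cell, macrophage and endothelial markers overlapped. The mean log2 CPM per marker, less the thermoneutral mean, did not overlap for these. For B cell markers it ran from -0.50 to 0.92 in thermoneutral and -2.17 to -1.72 in heat stress libraries. It ran from -0.05 to 0.04 and -0.95 to -0.41 for macrophage and dendritic cell markers. Endothelial markers had -0.14 to 0.22 and 0.35 to 0.56. In each list 1 marker went the other way. Liver markers (2 of 4 measured) reached 196 and 74.6 CPM in heat stress libraries 2 and 3 and 1.59 to 13.7 CPM in the other 4. The part of these markers in the results on J-domain genes was not tested. In bulk tissue, fewer cells of a type and less RNA per cell cannot be told apart.

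Levels between genes are compared in FPKM, the authors' deposited values scaled for transcript length and sequencing depth. DNAJA1, a class A folding cochaperone of the cytosol that carries a farnesyl anchor, was the most abundant member. Its FPKM was 115, 106 and 109 in thermoneutral libraries 1, 2 and 3 and 182, 111 and 103 in heat stress libraries 1, 2 and 3. DNAJA1 alone held 16.0% of the summed family FPKM, averaged over the 6 libraries, and the 5 highest members together held 43.8%. The next in order were DNAJC8, a spliceosome-associated protein, at a mean of 58.1 FPKM, DNAJA2, a second cytosolic class A protein, at 56.0, DNAJC18, a membrane-anchored member, at 52.5, and DNAJB6, a suppressor of protein aggregation, at 43.7. DNAJA1 exceeded DNAJC8 in all 6 libraries, but DNAJC8 and DNAJA2 changed places in at least 1 library, as did DNAJC18 and DNAJB6.

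Most of the family formed a continuous run of levels. A mean of at least 20 FPKM was reached by 14 members, 17 lay between 5 and 20, 4 between 1 and 5, and 3 below 1. Of the 37 pairs of neighbours in this order, 29 swapped in at least 1 library, so the rank of adjacent members was not separated by the spread between libraries. At the low end stood DNAJB13, a protein of cilia and sperm tails, at 0.879 FPKM, DNAJC6 (auxilin, which uncoats clathrin vesicles) at 0.132 and DNAJC22 at 0.0340. DNAJC22 had 1 to 4 counts per library and did not pass the filter on low counts, so 37 of the 38 members were tested.

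**Figure D1:**
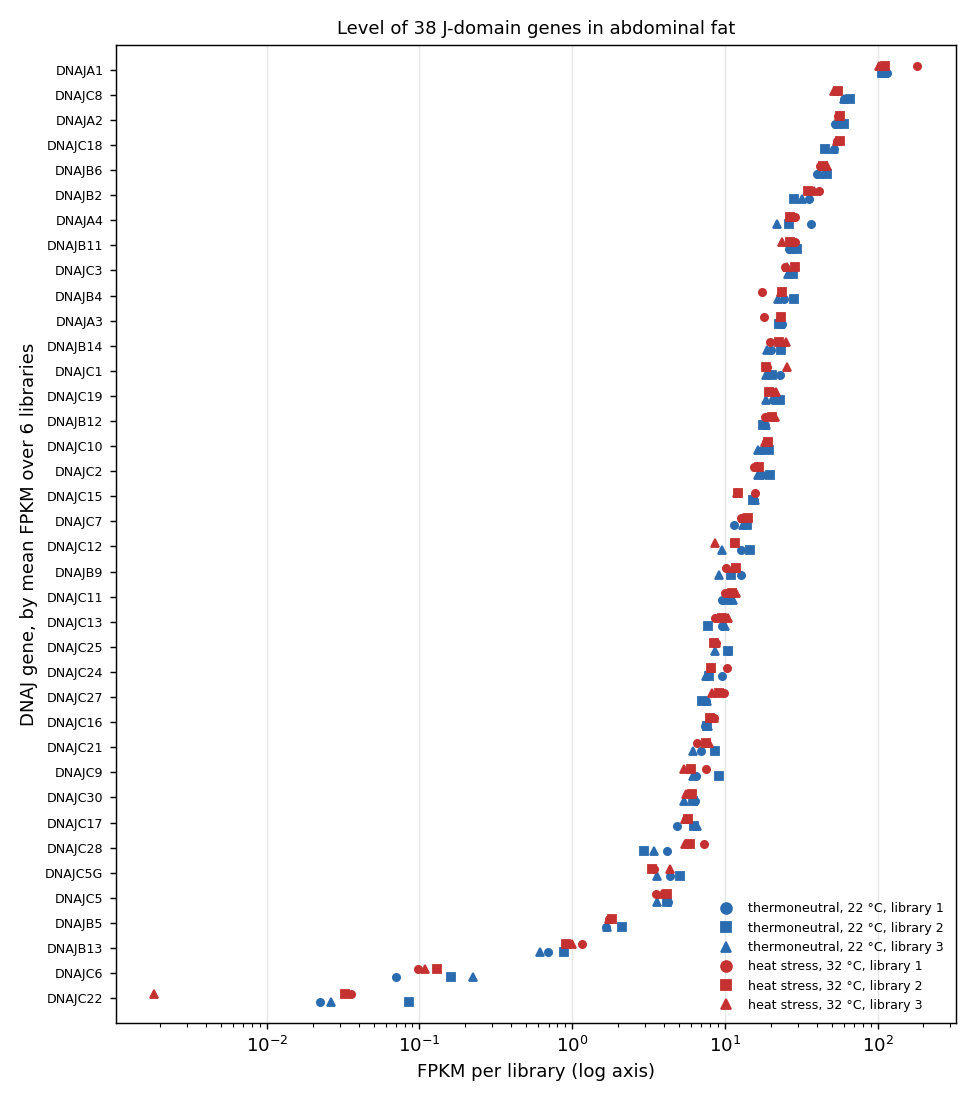
FPKM of the 38 J-domain genes in each of 6 libraries on a log axis, ordered by mean; blue marks are thermoneutral and red marks heat stress libraries. DNAJA1 is at the top with heat stress library 1 (182 FPKM) apart from the other 5 (103 to 115), and most neighbours overlap.

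The comparison of the groups asks how prolonged high temperature bears on gene expression in fat. Summed over the tested members, the family stood at 2024, 1964 and 1922 CPM in thermoneutral libraries and 2064, 1944 and 1989 CPM in heat stress libraries (CPM are counts scaled to a common library size with TMM factors, without regard to gene length). The groups overlapped, with means of 1970 ± 51.1 and 1999 ± 60.4 CPM (SD, n = 3 each). In edgeR's quasi-likelihood test adjusted over all 14743 genes tested, 0 of 37 members passed an FDR of 0.05, where 0.176% of all genes did (0.115% with the higher level under heat, 0.061% with the lower). An unadjusted p under 0.05 was reached by 2 members, DNAJC28 (higher in heat stress) and DNAJC8 (lower), or 5.41%, against 18.8% of all genes tested (9.56% higher and 9.2% lower). DESeq2, run on the same counts, called these same 2 genes at an adjusted p under 0.05, where it called 9.18% of genes (5.09% higher and 4.09% lower).

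Estimates for the family clustered near zero. Positive log2 fold changes (heat stress over thermoneutral) numbered 19 and negative ones 18 (49.4% of all genes tested were positive), and the median was 0.0046, against -0.0045 over all genes tested. The absolute log2 fold change had a median of 0.11 in the family and 0.20 over all genes, whose median standard error was larger (0.17 against 0.13). The 95% intervals show how much change the 3 libraries per group leave room for: 29 of 37 lay inside a 1.5-fold change in either direction and 35 inside a 2-fold change. The groups' values did not overlap for 6 members, or 16.2%, against 25.0% of all genes tested (12.6% higher and 12.4% lower). DNAJB13, DNAJC18, DNAJC27 and DNAJC28 were higher in heat stress in that count, and DNAJC2 and DNAJC8 lower. DNAJB13 and DNAJC27 are named here after their values were seen. DNAJB13 was near the floor and barely apart, at 1.07, 1.24 and 1.02 CPM and then 1.56, 1.26 and 1.31 CPM (log2 fold change 0.31 ± 0.28, FDR = 0.596).

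**Figure D2:**
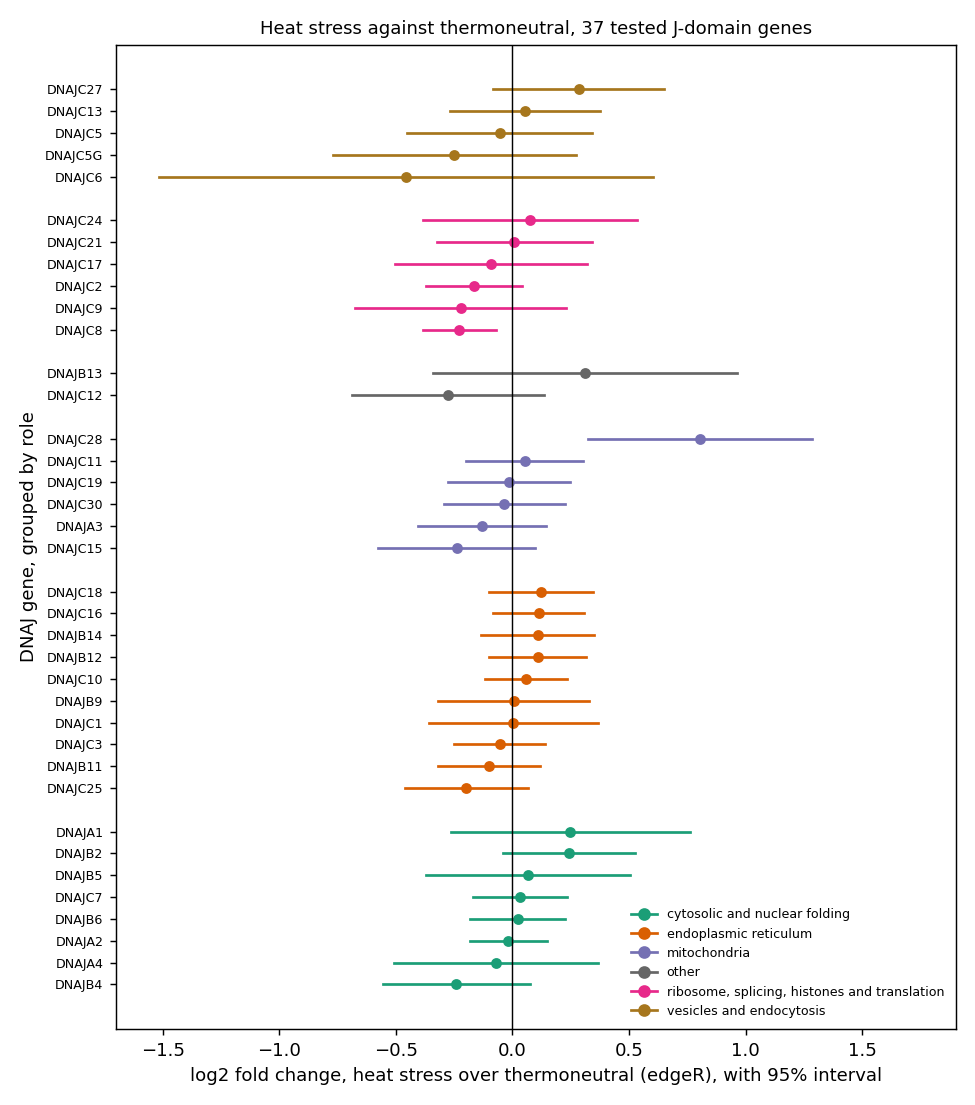
Log2 fold change of heat stress over thermoneutral for the 37 tested J-domain genes, grouped by role; points are edgeR estimates and bars 95% intervals (3 libraries per group). The intervals of DNAJC28 (0.33 to 1.29) and DNAJC8 (-0.38 to -0.07) leave out zero.

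Among cytosolic and nuclear folding cochaperones, 0 of 8 members passed the FDR and 0 had an unadjusted p under 0.05, with DESeq2 also calling 0. Over all genes those shares were 0.176%, 18.8% and 9.18%, which apply to the other role groups too. DNAJB1 and DNAJB8 are not among the 8. DNAJA1 (gene ID 427376) had 309, 272 and 292 CPM in thermoneutral libraries and 478, 286 and 274 CPM in heat stress libraries 1, 2 and 3. Only heat stress library 1 stood out, at 1.67 times the median of the other 5 libraries, and the groups otherwise overlapped. The log2 fold change was 0.25 ± 0.22 (SE, FDR = 0.591), and without heat stress library 1 it turned to -0.06. In the GRCg7b annotation, a later build than that of the files, DNAJA1 overlaps SMU1, a splicing factor; SMU1 had 83.0 CPM in heat stress library 1 and 87.6 to 91.3 CPM in the other libraries.

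DNAJA4 (gene ID 415360), a class A protein that heat induces in other vertebrates, had 73.4, 50.4 and 43.7 CPM in thermoneutral libraries and 55.8, 51.0 and 52.8 CPM in heat stress libraries. Here the highest library was thermoneutral 1, and all 3 heat stress values lay within the thermoneutral range. Its log2 fold change of -0.07 ± 0.19 (FDR = 0.875) became 0.18 without thermoneutral library 1. DNAJA2 (gene ID 415744) was among the steadiest members, at 92.9, 101 and 96.5 CPM and then 94.2, 95.3 and 97.4 CPM. Its 95% interval ran from -0.18 to 0.15 on the log2 scale.

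DNAJB4 (gene ID 424550), a close relative of the heat-inducible DNAJB1 and abundant in muscle, had 129, 143 and 118 CPM in thermoneutral and 90.5, 118 and 121 CPM in heat-stressed fat. Heat stress library 1 was the lowest for this gene, while it was the highest for DNAJA1. The log2 fold change was -0.24 ± 0.13 (FDR = 0.388), and -0.12 without that library. The skeletal muscle marker sum was also highest in thermoneutral library 2 and lowest in heat stress library 1. It was 33.7, 60.3 and 37.4 CPM, then 12.9, 24.8 and 19.4 CPM. The erythrocyte marker sum (3 of 4 measured) was likewise highest in thermoneutral library 2 and lowest in heat stress library 1. The cilia marker sum (2 of 4 measured) had the same highest and lowest libraries but was near the floor. In the GRCg7b annotation DNAJB4 overlaps FUBP1 and GIPC2. FUBP1 had its highest and lowest values in those same libraries (154, 182 and 175 CPM, then 139, 155 and 154 CPM). GIPC2 had 3.47, 7.13 and 5.32 CPM, then 3.91, 2.65 and 3.67 CPM. The part of muscle, of other cells or of shared reads in the DNAJB4 values was not tested. DNAJB6 (gene ID 420448) averaged 131 ± 8.62 and 133 ± 8.39 CPM, and DNAJC7 (gene ID 428312), whose tetratricopeptide repeats bind both HSP70 and HSP90, averaged 79.4 ± 6.13 and 81.2 ± 3.71 CPM. Their log2 fold changes of 0.02 and 0.03 had intervals from -0.18 to 0.23 and from -0.17 to 0.24. DNAJB2, which links HSP70 clients to ubiquitin, had the smallest FDR of this group, 0.333 (log2 fold change 0.24 ± 0.12). DNAJB5, a relative of DNAJB1 and DNAJB4, averaged 5.38 ± 0.64 and 5.63 ± 0.42 CPM.

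In the endoplasmic reticulum group 0 of 10 members passed the FDR and 0 had an unadjusted p under 0.05, and DESeq2 called 0. The 10 log2 fold changes ran from -0.20 in DNAJC25 to 0.12 in DNAJC18. DNAJB9 (gene ID 417783), which marks misfolded proteins for degradation and restrains the stress sensor IRE1, had 46.6, 38.2 and 33.4 CPM in thermoneutral and 36.1, 41.3 and 41.1 CPM in heat-stressed fat. The heat stress values lay inside the thermoneutral range. DNAJB11 (gene ID 424868), a soluble folding cochaperone, averaged 48.7 ± 1.70 and 45.5 ± 4.15 CPM. DNAJC3 (gene ID 418787), known as an inhibitor of the kinase PERK, averaged 154 ± 4.23 and 148 ± 10.6 CPM. DNAJC10 (gene ID 424115), a disulfide reductase, averaged 73.5 ± 4.35 and 76.6 ± 0.64 CPM. DNAJC18 (gene ID 416189) had 62.2, 51.3 and 61.9 CPM in thermoneutral and 63.3, 64.2 and 63.6 CPM in heat-stressed fat, which did not overlap but differed by a log2 fold change of only 0.12 ± 0.10 (FDR = 0.537), or 0.03 without thermoneutral library 2. The membrane-anchored pair DNAJB12 and DNAJB14, which help remove misfolded membrane proteins, averaged 57.7 ± 2.69 and 62.2 ± 4.95 CPM, and 80.9 ± 2.71 and 87.2 ± 10.9 CPM, with log2 fold changes of 0.11 each. DNAJC16 averaged 34.9 ± 0.92 and 37.8 ± 1.72 CPM and DNAJC1, a partner of HSPA5 that also binds ribosomes, 59.8 ± 6.81 and 60.0 ± 11.8 CPM. The lowest estimate of the group was that of DNAJC25, at 23.0, 22.1 and 19.0 CPM and then 18.9, 17.9 and 19.0 CPM, where the groups met at their edges (FDR = 0.394).

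HSPA5 (BiP), the HSP70 that the lumenal members DNAJB9, DNAJB11, DNAJC3 and DNAJC10 serve, had other values. It was at 588, 413 and 423 CPM in thermoneutral and 346, 293 and 252 CPM in heat-stressed fat, without overlap. Its log2 fold change was -0.68 ± 0.18 (edgeR FDR = 0.118, unadjusted p = 0.00703, DESeq2 adjusted p = 0.00864). The ratio of HSPA5 to the summed CPM of DNAJB9, DNAJB11, DNAJC3 and DNAJC10, which does not depend on library scaling, was 0.86, 0.37 and 0.49 on the log2 scale in thermoneutral libraries and 0.21, -0.14 and -0.28 in heat stress libraries. All 3 heat stress ratios were below all 3 thermoneutral ones, a mean difference of -0.64. This ratio was put together after the values were seen, is 1 of 8 ratios computed, and is given as a description. An exact permutation test gave p = 0.1, the smallest it can give with 3 libraries per group, so it cannot decide. Taken singly, the ratios of HSPA5 to DNAJB9, DNAJB11, DNAJC3 and DNAJC10 did not overlap between the groups either. They share the HSPA5 values and so largely repeat its own difference. The ratios of HSPA9 to DNAJA3, HSPA2 to DNAJA1 and HSPA8 to DNAJA2 overlapped between the groups.

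**Figure D3:**
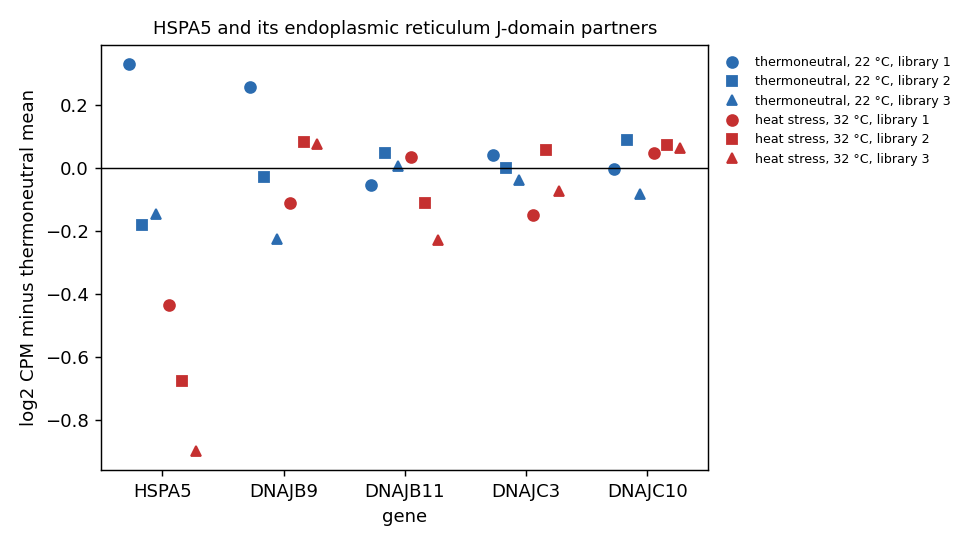
Log2 CPM minus the thermoneutral mean in each of 6 libraries for HSPA5 and the cochaperones DNAJB9, DNAJB11, DNAJC3 and DNAJC10; blue marks are thermoneutral and red marks heat stress libraries. The 3 heat stress values of HSPA5 lie below its thermoneutral values, while for the 4 cochaperones the groups overlap.

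The mitochondrial group held the member with the largest difference. DNAJC28 (gene ID 770607), whose function is little described, had 7.77, 5.22 and 6.31 CPM in thermoneutral libraries and 13.2, 10.5 and 10.04 CPM in heat stress libraries 1, 2 and 3. All heat stress values were above all thermoneutral ones. The means were 6.43 ± 1.28 and 11.2 ± 1.71 CPM (SD, n = 3 each), a log2 fold change of 0.81 ± 0.20 or 1.75-fold. It did not pass edgeR over all genes (FDR = 0.107, unadjusted p = 0.0053) and passed DESeq2 (adjusted p = 0.0062). Leaving out each library in turn gave log2 fold changes from 0.67 to 0.96, with an unadjusted p under 0.05 in 6 of 6 fits and an FDR of at least 0.110. Of the 37 members, it had the lowest edgeR FDR, and at 4.88 FPKM it ranked 32 of 38 in level.

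The other mitochondrial members had smaller estimates. DNAJA3 (gene ID 416671), the matrix class A partner of the mitochondrial HSP70 HSPA9, had 68.2, 62.3 and 67.0 CPM and then 50.4, 64.4 and 65.6 CPM, with heat stress library 1 the lowest. Its log2 fold change of -0.13 ± 0.12 (FDR = 0.598) was -0.02 without that library. HSPA9 itself averaged 167 ± 6.19 and 161 ± 17.1 CPM. DNAJC19 (gene ID 424966) and DNAJC15 (gene ID 418838) both belong to the motor that pulls proteins through the inner membrane. DNAJC19 averaged 21.2 ± 1.68 and 21.0 ± 1.42 CPM. DNAJC15 had 15.8, 14.8 and 16.1 CPM in thermoneutral and 15.6, 11.8 and 12.1 CPM in heat-stressed fat, so that heat stress library 1 sat among the thermoneutral values (log2 fold change -0.24 ± 0.14, FDR = 0.420). DNAJC11, of the cristae-organizing machinery, and DNAJC30 had log2 fold changes of 0.05 and -0.03.

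Cochaperones of ribosomes, splicing, histones and translation included the member with the most even difference. DNAJC8 (gene ID 419569) had 101, 105 and 100 CPM in thermoneutral and 88.6, 87.3 and 85.5 CPM in heat-stressed fat. The groups did not overlap and each varied little, with means of 102 ± 2.34 and 87.1 ± 1.59 CPM. The log2 fold change was -0.23 ± 0.07, a 1.17-fold lower level in heat stress (edgeR FDR = 0.140, unadjusted p = 0.0108, DESeq2 adjusted p = 0.0254). With 1 library left out in turn it ran from -0.24 to -0.21. On log2(TPM + 1) it was -0.13, and the unadjusted p was no longer under 0.05.

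DNAJC2 (gene ID 417717), which docks HSP70 on the ribosome, had 39.9, 42.5 and 37.2 CPM in thermoneutral and 34.3, 36.1 and 36.2 CPM in heat-stressed fat, again without overlap (log2 fold change -0.17 ± 0.09, FDR = 0.365). It overlaps PSMC2 and PMPCB in the GRCg7b annotation, so reads shared between them cannot be assigned with certainty. PSMC2 and PMPCB had log2 fold changes of -0.17 and -0.24. DNAJC9, a histone chaperone, had 12.6, 17.0 and 12.0 CPM in thermoneutral and 14.1, 11.1 and 10.4 CPM in heat-stressed fat. Thermoneutral library 2 was highest for DNAJC9. It was also highest for the sum of 4 cell cycle markers (57.8, 106 and 53.2 CPM, then 46.0, 39.6 and 30.7 CPM). The T cell, B cell, erythrocyte, skeletal muscle and cilia marker sums were highest in that library too. The part of dividing or other cells in the DNAJC9 values was not tested. The other 3 genes of the group, DNAJC17, DNAJC21 and DNAJC24, had log2 fold changes between -0.09 and 0.08. Of the 6 genes in this group 0 passed the FDR in edgeR, and DNAJC8 was the 1 gene with an unadjusted p under 0.05 and the 1 called by DESeq2.

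Of 5 tested vesicle and endocytosis cochaperones, 0 passed the FDR, 0 had an unadjusted p under 0.05 and DESeq2 called 0. DNAJC5 (gene ID 419256), the cysteine string protein of secretory vesicles, averaged 6.65 ± 0.61 and 6.40 ± 0.46 CPM. DNAJC6 (gene ID 424698) had 0.434, 0.955 and 1.36 CPM in thermoneutral and 0.598, 0.761 and 0.655 CPM in heat-stressed fat. Its 3.15-fold range across libraries was the widest of the tested members, and its interval, from -1.51 to 0.60 on the log2 scale, reached past a 2-fold lower level. It had 13, 30 and 48 counts in thermoneutral libraries, and its log2 fold change of -0.45 was -0.05 without thermoneutral library 3. DNAJC27, a small GTPase with a J domain, did not overlap between the groups (7.04, 6.34 and 7.11 CPM, then 9.04, 8.26 and 7.65 CPM; log2 fold change 0.28 ± 0.16, FDR = 0.378). In the GRCg7b annotation DNAJC27 overlaps EFR3B, which had 9.94, 8.95 and 12.0 CPM, then 17.6, 9.24 and 9.59 CPM. The part of shared reads in the DNAJC27 values was not tested. DNAJC13, of endosomes, averaged 78.9 ± 12.0 and 81.9 ± 8.99 CPM, and DNAJC5G, a relative of DNAJC5, 5.50 ± 0.81 and 4.63 ± 0.79 CPM. Among the remaining genes, DNAJC12, which assists aromatic amino acid hydroxylases in mammals, had a log2 fold change of -0.28 ± 0.17 (FDR = 0.446).

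**Figure D4:**
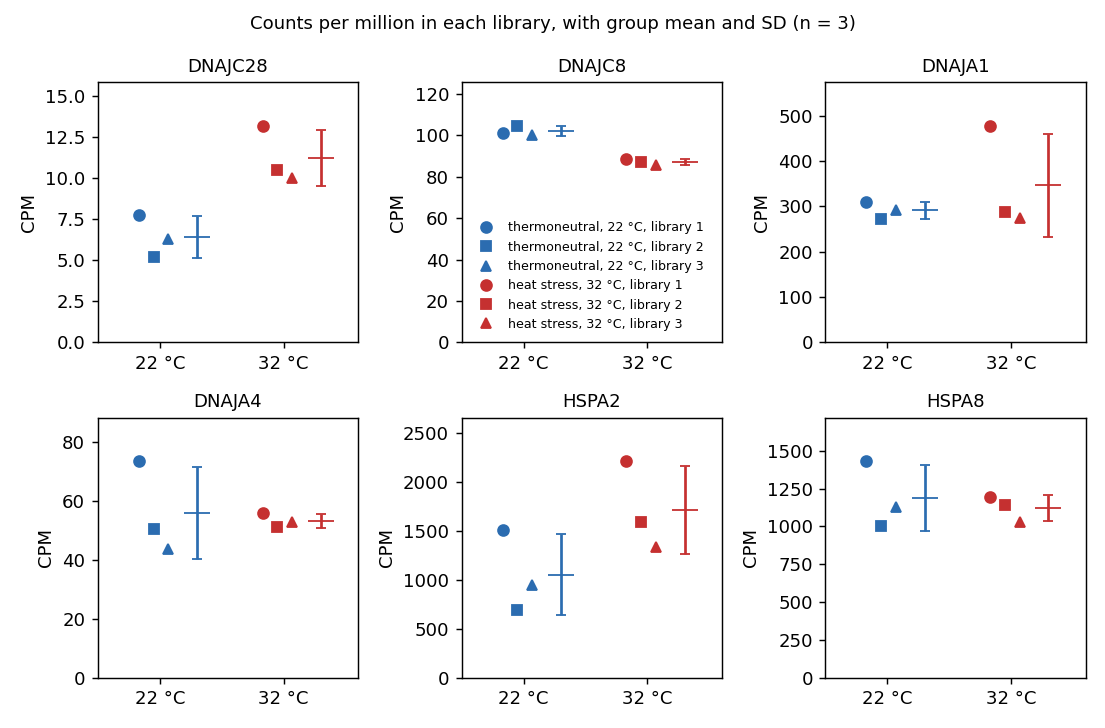
CPM in each of 6 libraries for DNAJC28, DNAJC8, DNAJA1, DNAJA4 and the HSP70 genes HSPA2 and HSPA8; side marks give the mean and SD of 3 libraries, and axes start at 0. DNAJC28 and DNAJC8 separate the groups, DNAJA1 is high in heat stress library 1 (478 CPM), and DNAJA4 and HSPA8 are highest in thermoneutral library 1.

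The chaperones and exchange factors that work with J-domain proteins were examined as a list of 28 genes, 26 of them tested. In edgeR 0 passed the FDR, and at an unadjusted p under 0.05 the list held 0 genes with a higher and 3 with a lower level in heat-stressed fat, or 11.5% against 18.8% of all genes. DESeq2 called 0 higher and 2 lower, where it called 5.09% of all genes higher and 4.09% lower. The list's median log2 fold change was -0.05. HSPA2, a cytosolic HSP70, was below HSPA8 in FPKM in all 3 thermoneutral libraries (means of 402 and 500 FPKM). It was above HSPA8 in all 3 heat stress libraries (666 and 478 FPKM). In thermoneutral library 1 HSPA2 and HSPA8 were close, at 570 and 593 FPKM, and this order was not tested. HSPA2 had 1505, 695 and 950 CPM in thermoneutral and 2214, 1587 and 1334 CPM in heat-stressed fat. Thermoneutral library 1 fell inside the heat stress range, and the log2 fold change of 0.71 ± 0.31 did not pass (FDR = 0.286). HSPA8, the constitutive HSP70, had 1432, 1002 and 1132 CPM and then 1198, 1142 and 1027 CPM, with an interval from -0.45 to 0.28.

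The 3 genes with an unadjusted p under 0.05 were HSPA5, HSP90AB1 and HSPA14. HSP90AB1, a cytosolic HSP90, had 42.9, 45.2 and 40.6 CPM in thermoneutral and 31.5, 30.1 and 25.1 CPM in heat-stressed fat, without overlap (log2 fold change -0.57 ± 0.11, edgeR FDR = 0.0697, DESeq2 adjusted p = 0.000724). HSPA14, a ribosome-bound HSP70 that pairs with DNAJC2, averaged 18.9 ± 1.34 and 15.3 ± 1.29 CPM (log2 fold change -0.30 ± 0.12, edgeR FDR = 0.229, DESeq2 adjusted p = 0.169). HSPH1, an HSP110 exchange factor, and BAG3, an exchange factor of the heat shock response, averaged 33.5 ± 2.36 and 35.5 ± 4.81 CPM, and 64.6 ± 9.48 and 71.9 ± 7.28 CPM. Their log2 fold changes of 0.09 and 0.16 had FDR values of 0.761 and 0.566 in edgeR.

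Across the 37 tested members the libraries of a group varied by a median coefficient of variation of 9.11% in thermoneutral and 8.35% in heat-stressed fat. The highest library exceeded the lowest by less than 1.5-fold for 28 members and by at least 2-fold for 2, DNAJC6 and DNAJC28. Thermoneutral library 2 was the highest library for 12 members and the lowest for 9. No library was highest for more members than that.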

How the data were processed

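Raw counts, FPKM and TPM per gene are the deposited values used, as the file headers name them; FPKM and TPM are the authors' scalings. HISAT2 2.1.0, StringTie 2.1.3b, Bowtie2 2.3.4.1 and GRCg6a are named per the submitters' processing notes, while what each tool did and whether counting used strand is not given in the sources used here. In the GRCg7b annotation 17 members overlap another gene of the table, and reads there cannot be assigned with certainty. These include DNAJC16 with AGMAT (AGMAT log2 fold change 0.52, edgeR FDR = 0.0753) and DNAJC10 with PDE1A (PDE1A -0.38, FDR = 0.151). They also include DNAJB5 with VCP (VCP 0.28, FDR = 0.202). The part of shared reads in the values of these members was not tested. Another 36 columns with values of single libraries were not used.

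All listed genes entered edgeR 4.0.16 under R 4.3.3 as counts (TMM, filterByExpr, quasi-likelihood F test on the group alone), with Benjamini-Hochberg adjustment over 14743 genes. Dividing the absolute log2 fold change by the square root of F gave its standard error, and 95% intervals use the t quantile. Alternatives were DESeq2 1.42.0 with default settings, other scalings and filters, limma 3.58.1 on log2(FPKM + 1), log2(FPKM + 0.1) and log2(TPM + 1), a replicate block, and each library left out. edgeR and DESeq2 were also run on counts simulated with dispersions fitted to these libraries. The changes set there were larger than any member's estimate, so recovery of changes of the members' size was not checked. Libraries within a group were not copies of each other (chi-square of their counts over genes, per degree of freedom, 34.4 to 98.2). In the 6 libraries 1 CPM was worth 29.98 to 46.0 counts.

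The members and lists were chosen with earlier results of these data known. By rule the text names members past a test (edgeR FDR or unadjusted p, or DESeq2), the 5 of highest FPKM, the 3 of largest spread and 17 fixed by name, 16 of them listed, which made 19 in all. Other members named were added after their values were seen, to complete the role groups. The list of J-domain proteins without a DNAJ symbol is not reported here.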

Additional observations from a re-analysis of the deposited data

How the results depend on the processing

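The count of J-domain genes past the adjusted threshold was 0 in edgeR and limma under every scaling, filter, block and omission run, and 2 in DESeq2, which called 2 partner genes and 1364 genes in all. Members at an unadjusted p under 0.05 numbered 2 of 37, and 3 with library totals, 4 with the replicate block, 5 on log2(FPKM + 1) and 4 on log2(FPKM + 0.1). On log2(TPM + 1) they numbered 6, all higher in heat stress, and with 1 library left out 2 to 4. The share of all genes past that p was 18.8%, and 18.8% with library totals and 17.8% with the block. It was 17.5% on log2(FPKM + 1), 17.7% on log2(FPKM + 0.1), 20.6% on log2(TPM + 1) and 13.3 to 18.9% with 1 library left out. DNAJC28 was among the members at that p in 18 of 18 alternatives and DNAJC8 in 15. The exceptions for DNAJC8 were log2(TPM + 1) with and without the trend (-0.13) and log2(FPKM + 0.1) without it (-0.21). Partner genes at that unadjusted p numbered 3 of 26, and 5 in DESeq2, where 19.9% of all genes reached it. They also numbered 5 on log2(TPM + 1) and with the block, and 2 to 6 with 1 library left out. The family's median log2 fold change of 0.0046 became 0.081 on log2(TPM + 1), where the median over all genes was 0.076, and ran from -0.050 to 0.0045 with 1 library left out. All genes past the adjusted threshold numbered 26, and 99 with library totals, 23 with no filter on low counts and 133 with at least 1 CPM in all 6 libraries. They numbered 35 on log2(FPKM + 1), 94 on log2(FPKM + 0.1), 202 on log2(TPM + 1), 95 with the block and 3 to 35 with 1 library left out. The limma fits above use a mean-variance trend, which was chosen after seeing the data: limma had first been run without it, and the trend was switched on once those counts were known. Without the trend, added as an alternative, limma called 14 genes on log2(FPKM + 1), 3 on log2(FPKM + 0.1) and 123 on log2(TPM + 1). Members at an unadjusted p under 0.05 then numbered 4, 3 and 5, where 17.9%, 17.0% and 20.2% of all genes reached it. In these fits 0 members passed the adjusted threshold, and the family's median on log2(TPM + 1) was the same 0.081. Same-numbered libraries deviated together at correlations of 0.078, 0.25 and 0.036, so the numbers were not taken to pair birds. DNAJC6 has no value under the 1 CPM filter.

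Some signs turned, none of a gene at an unadjusted p under 0.05. With library totals DNAJA2 stood at 0.0022 and DNAJC19 at 0.0042. On log2(TPM + 1), with or without the trend, DNAJA2 stood at 0.081, DNAJA4 at 0.058, DNAJC19 at 0.079, DNAJC3 at 0.043 and DNAJC5 at 0.037. With 1 library left out the ranges were -0.055 to 0.39 for DNAJA1, -0.047 to 0.0071 for DNAJA2, -0.22 to 0.18 for DNAJA4, -0.024 to 0.069 for DNAJB6, -0.10 to 0.14 for DNAJB9, -0.077 to 0.033 for DNAJC19, -0.12 to 0.0094 for DNAJC5 and -0.031 to 0.066 for DNAJC7. Over all alternatives the signs of DNAJB5 (-0.031 to 0.16), DNAJC1 (-0.17 to 0.10), DNAJC11 (-0.017 to 0.15), DNAJC13 (-0.073 to 0.15), DNAJC17 (-0.20 to 0.015), DNAJC21 (-0.084 to 0.12), DNAJC24 (-0.055 to 0.20) and DNAJC30 (-0.095 to 0.062) turned too. The cause was not tested.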
